A study of Mus musculus with 9 samples.

Results

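The matricellular and elastic fibre genes were 9 genes taken by symbol from the 55367 genes of the count table: Sparc, Postn, Tnc, Thbs2, Fn1, Fbn1, Fbn2, Fbln2 and Eln. All 9 passed the filter on low counts, together with 15365 genes in all. RNA-Seq was performed on whole osteosarcoma (OS) tumors of genetically engineered mice, 4 p53-driven and 5 Myc-knockin tumors. The p53-driven mice carried Col2.3-Cre and 1 floxed Trp53 allele (Col2.3-Cre/TrpP53fl/+), and the Myc-knockin mice carried the same floxed p53 allele and, behind a Lox-Stop-Lox cassette, c-MycT58A, a Myc allele with the T58A change. Both groups therefore share the floxed p53 allele and Cre recombination, and no tumor without them was compared. According to the study's methods, Cre was expressed from the Col2.3 promoter, a type I collagen promoter fragment that is active in osteoblasts, in both models. The labels number the tumors within a group but give no animal, age or batch, so the p-values measure the spread between these tumors. The study reports an earlier median time to sacrifice for its Myc-knockin than for its p53-driven mice. The groups may therefore differ in age, which cannot be told apart from genotype here.

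Matricellular proteins are secreted into the extracellular matrix, where they bind collagen, growth factors and cell surface receptors without forming a main fibre of their own. In bone, SPARC, also called osteonectin, is among the most abundant noncollagenous proteins and is made by osteoblasts, and periostin is a product of the periosteum. Elastic fibres form on a scaffold of fibrillin microfibrils onto which tropoelastin is laid down, with fibulins as linkers. Fibronectin is laid down early in matrix assembly and is needed for several of the other proteins to be deposited.

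Among the members, 2 were called lower in the Myc-knockin tumors, Postn and Fn1, and none was called higher. A call required a Benjamini-Hochberg adjusted p under 0.05 in edgeR's quasi-likelihood test over all 15365 genes and a fold change over 1.5. By the same rule 5.27% of all genes tested were called, 3% lower and 2.26% higher, and the median log2 fold change of all genes was 0.14. Other scalings moved that median between 0.03 and 0.24. The 5 genes for matricellular proteins and fibronectin had negative log2 fold changes, from -3.54 to -1.62, whereas the fibrillin gene Fbn2 had the opposite sign at 3.14 without passing (adjusted p = 0.0587). Levels per tumor are CPM, read counts scaled to a common library size with edgeR's TMM factors. The members together took 1.93% to 3.09% of the counts outside satellite-repeat genes in the p53-driven tumors and 0.381% to 1.09% in the Myc-knockin tumors, with no overlap between the groups. Sparc alone took 2.28% in p53-driven tumor F325, and it did overlap, with 0.803% in F187 and 0.824% in Myc-knockin tumor M664. The 4 elastic fibre members summed to 125 to 652 CPM in p53-driven and 101 to 613 CPM in Myc-knockin tumors and overlapped too.

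**Figure D1:**
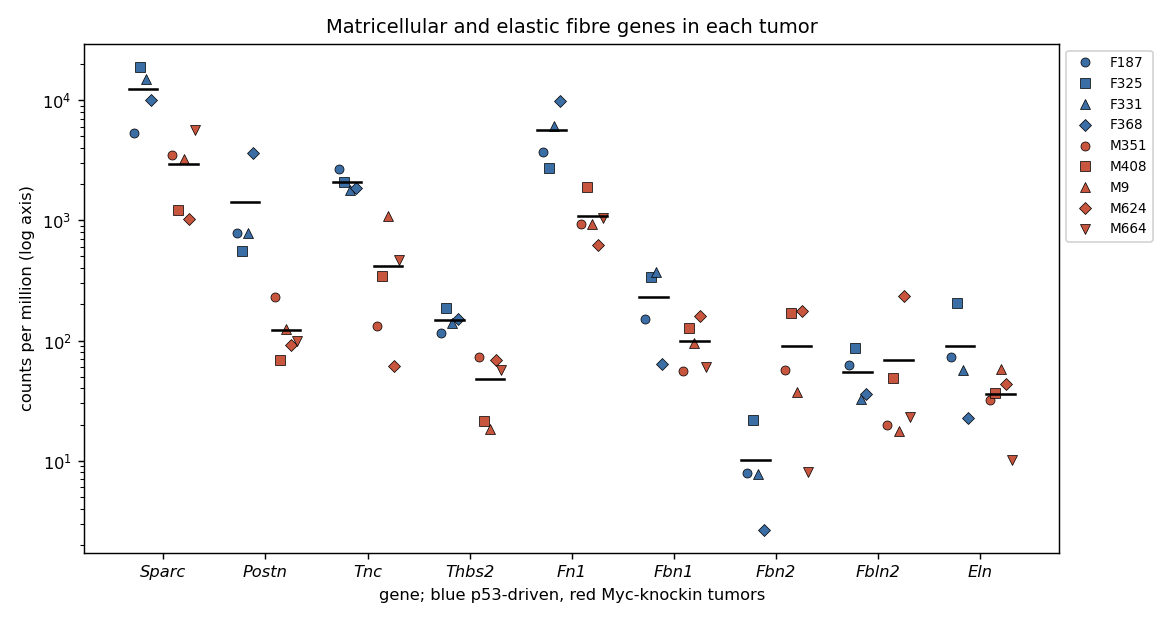
TMM-normalized CPM (log axis) of the 9 members in each tumor, with blue symbols for the 4 p53-driven tumors, red symbols for the 5 Myc-knockin tumors and a black bar at each group's arithmetic mean. Every Myc-knockin tumor lies below every p53-driven tumor for Postn, Tnc, Thbs2 and Fn1, while Fbn2 has its highest values, 169 and 176 CPM, in Myc-knockin tumors M408 and M624.

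The total counts ranged from 2716322 in M351 to 17073285 in M624, where letters and numbers are the table's tumor names, F for p53-driven and M for Myc-knockin. Between 23.2% and 81.0% of the counts fell on 12 satellite-repeat genes in 4 libraries (F187, M408, M351 and M9), and at most 0.0242% in the others. Outside these genes 671790 counts remained in M9 and 872935 in M351. Background from genomic reads, estimated from 1824 chemosensory receptor genes, came to 24.2% of the remaining counts in M9, 16.8% in M351 and 5.52% in F187. The noncoding RNA Rn7sk, which is not polyadenylated, was at 5.33 and 9.32 CPM in M624 and M664, whereas no other library had under 8858 CPM. The limit of 3 counts corresponded to 0.114 CPM in M624 and 2.39 CPM in M9. The part of these library differences in the results below was not tested. Myc, the gene altered in the knockin, was called higher in the Myc-knockin tumors (log2 fold change 3.41, edgeR adjusted p = 0.0217), with 54.3 ± 11.3 CPM (SD, n = 4) in p53-driven and 577 ± 391 CPM (SD, n = 5) in Myc-knockin tumors.

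The labelled tissue is tumor, and the osteoblast markers were checked because the tumors were named osteosarcoma. The summed level of 11 osteoblast markers was 61925 to 140389 CPM in p53-driven and 3405 to 40220 CPM in Myc-knockin tumors. In M624 the osteoblast transcription factor gene Runx2 had 9.18 CPM, while in the other 8 tumors it had at least 132 CPM. Phex and Dmp1, genes of the osteocyte, had 0.27 and 0.50 CPM in M624. Tumor M624 thus stood apart from the others in Runx2, Phex and Dmp1, and also in Ibsp (34.1 CPM, against at least 535 CPM elsewhere). It did not stand apart in every osteoblast marker. M624 and M408 were close in Sp7 (25.9 and 34.4 CPM) and Alpl (72.2 and 101 CPM), and Bglap2 was at 0 CPM in both.

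The upstream sequence is shown for Postn, Tnc and Thbs2, the 3 matricellular genes whose groups did not overlap and whose start is in the RefSeq promoter table. Each is the 250 bases before a RefSeq start on GRCm38.p6, written 5′ to 3′ on the strand of the gene, with motif letters in capitals. Postn lies on chr3:54360857-54361106 (plus strand), Tnc on chr4:64047016-64047265 (minus strand) and Thbs2 on chr17:14694263-14694512 (minus strand).
Postn: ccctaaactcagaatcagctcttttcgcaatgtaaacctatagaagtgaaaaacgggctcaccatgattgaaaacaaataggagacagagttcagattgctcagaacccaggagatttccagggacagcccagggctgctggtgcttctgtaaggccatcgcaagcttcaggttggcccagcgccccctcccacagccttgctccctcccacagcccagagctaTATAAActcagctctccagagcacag
Tnc: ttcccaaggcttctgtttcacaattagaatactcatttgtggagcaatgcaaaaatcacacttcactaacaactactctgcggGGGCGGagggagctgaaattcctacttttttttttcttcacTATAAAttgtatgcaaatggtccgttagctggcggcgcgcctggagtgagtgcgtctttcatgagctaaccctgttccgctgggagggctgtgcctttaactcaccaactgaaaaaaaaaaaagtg
Thbs2: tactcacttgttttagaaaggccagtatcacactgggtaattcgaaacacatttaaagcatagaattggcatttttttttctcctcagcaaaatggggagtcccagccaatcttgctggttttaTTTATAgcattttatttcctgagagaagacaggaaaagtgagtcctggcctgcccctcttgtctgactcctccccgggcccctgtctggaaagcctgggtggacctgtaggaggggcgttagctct
Motifs were searched on both strands of these windows and of all 32536 promoter sequences of the same length. The letters TATAAA, searched for the TATA box, began at -26 from the start in Postn and at -126 in Tnc. In Thbs2 they began at -126 on the opposite strand, and they were in 12.3% of all sequences. The GC box, searched as GGGCGG, was at -167 in Tnc and in 33% of all sequences. It did not overlap the TATAAA letters there. RefSeq holds a further start for both Postn and Tnc. The window of the further Postn start held none of the motifs searched, and counted from the further Tnc start the same TATAAA and GGGCGG letters lie at -205 and -246. The E-box, searched as CACGTG, was in 6.04% of all sequences and in none of these windows. The AP-1 motif, searched as TGACTCA, was in 4.45% and likewise in none of them. Absence says only that these letters were not in the window. A match likewise says only that the letters were there, and whether any of them works as a promoter element was not tested.

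Postn encodes periostin, a secreted protein of periosteum and other collagen-rich tissues that binds integrins. The gene (ENSMUSG00000027750) spans positions 54361109 to 54391037 of chromosome 3 (mm10, as for all genes here). Of the p53-driven tumors, F187 had 781, F325 551, F331 778 and F368 3596 CPM. Of the Myc-knockin tumors, M351 had 230, M408 68.7, M9 125, M624 91.0 and M664 99.5 CPM. All Myc-knockin values were below all p53-driven values, and F368 was the highest of the 9 tumors. The means were 1426 ± 1450 CPM (SD, n = 4) and 123 ± 63.3 CPM (SD, n = 5). Postn was the member with the largest fold change (log2 fold change -3.54, SE 0.64, edgeR adjusted p = 0.0223), or 11.6-fold lower in the Myc-knockin tumors. The log2 fold change without F368 was -2.56 with an adjusted p of 0.0667, and the call was also lost without F325 (adjusted p = 0.0647) and without F331 (adjusted p = 0.0640). In these 3 fits only 5 to 8 of all genes were called.

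Fn1 encodes fibronectin, which cells assemble into fibrils through integrins. The gene (ENSMUSG00000026193) lies on chromosome 1 from 71585520 to 71653200 and partly faces Apol7d on the other strand, which had 41 counts in all 9 tumors. Fn1 had 3686, 2733, 6099 and 9898 CPM in F187, F325, F331 and F368. In M351, M408, M9, M624 and M664 it had 925, 1883, 928, 622 and 1054 CPM. The groups did not overlap, and M408 was the Myc-knockin tumor nearest to the p53-driven ones. Means of 5604 ± 3194 CPM (SD, n = 4) and 1083 ± 475 CPM (SD, n = 5) gave a log2 fold change of -2.37 (SE 0.55, edgeR adjusted p = 0.0380), or 5.18-fold lower in the Myc-knockin tumors. The Fn1 call was lost in 7 of the 9 fits that left out 1 tumor. The adjusted p was 0.0565 without F187, 0.0789 without F325, 0.107 without F331, 0.130 without F368, 0.0694 without M351, 0.0680 without M624 and 0.0562 without M664, with log2 fold changes between -2.64 and -1.98 over all 9 fits.

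Sparc encodes the collagen-binding protein osteonectin. The gene (ENSMUSG00000018593) lies on chromosome 11 from 55394500 to 55423183. It had the highest level of all members, with 5349, 18792, 14830 and 10093 CPM in F187, F325, F331 and F368. In M351, M408, M9, M624 and M664 it had 3500, 1224, 3238, 1025 and 5614 CPM. The groups overlapped in 1 place, since M664 was above F187. With means of 12266 ± 5823 CPM (SD, n = 4) and 2920 ± 1882 CPM (SD, n = 5), the log2 fold change was -2.07 (SE 0.68) and did not pass (edgeR adjusted p = 0.0886). The two-sided exact permutation test of the mean log2 CPM gave p = 0.0317 over 126 arrangements, whose smallest possible p is 0.0159.

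Tnc encodes tenascin-C, a large multimeric glycoprotein of developing and remodelling tissue. It lies on chromosome 4 from 63959785 to 64047015 (ENSMUSG00000028364). Its levels were 2650, 2064, 1773 and 1865 CPM in F187, F325, F331 and F368, the narrowest range of any member at 1.49-fold. M351, M408, M9, M624 and M664 had 131, 346, 1078, 60.9 and 469 CPM, a 17.7-fold range. No Myc-knockin value reached the p53-driven ones. The log2 fold change of -2.33 (SE 0.71) did not pass (edgeR adjusted p = 0.0722), and without M9 it was -3.05 and passed (adjusted p = 0.0231). The fit without M9 called 10.4% of all genes, against 5.27% with all tumors. M9 is the library with the most background, which made up 0.714% of its Tnc counts.

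Thbs2 encodes thrombospondin-2, a secreted inhibitor of angiogenesis that also acts on collagen fibril formation. It lies on chromosome 17 from 14665500 to 14694235 (ENSMUSG00000023885). It had 115, 188, 139 and 151 CPM in F187, F325, F331 and F368. In M351, M408, M9, M624 and M664 it had 73.2, 21.6, 18.3, 68.9 and 57.3 CPM. These ranges did not overlap either, but the M9 value rests on 23 counts, of which 8.71 were expected as background. With means of 148 ± 30.5 CPM (SD, n = 4) and 47.9 ± 26.2 CPM (SD, n = 5), the log2 fold change was -1.62 (SE 0.42) at an edgeR adjusted p of 0.05005, just outside the threshold. Without M9 it was -1.42 and passed (adjusted p = 0.0426), in a fit that called 10.4% of all genes.

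Thus 4 of the 9 members, Postn, Tnc, Thbs2 and Fn1, had every Myc-knockin tumor below every p53-driven tumor, each with an exact permutation p of 0.0159, where 7.54% of all genes tested had such values. Of the 4 matricellular genes 1 was called, at a median log2 fold change of -2.20. DESeq2, the tool the study's methods name, called 6 members, Sparc, Postn, Tnc, Thbs2, Fn1 and Fbn2, against 17.2% of all genes. limma-voom with quality weights called the same 6 members, against 10.8% of all genes. Without M624 and M664 edgeR called 1 member, Fbn2, where 4.61% of all genes tested were called. Postn then had an adjusted p of 0.0534 and Fn1 of 0.0747.

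**Figure D2:**
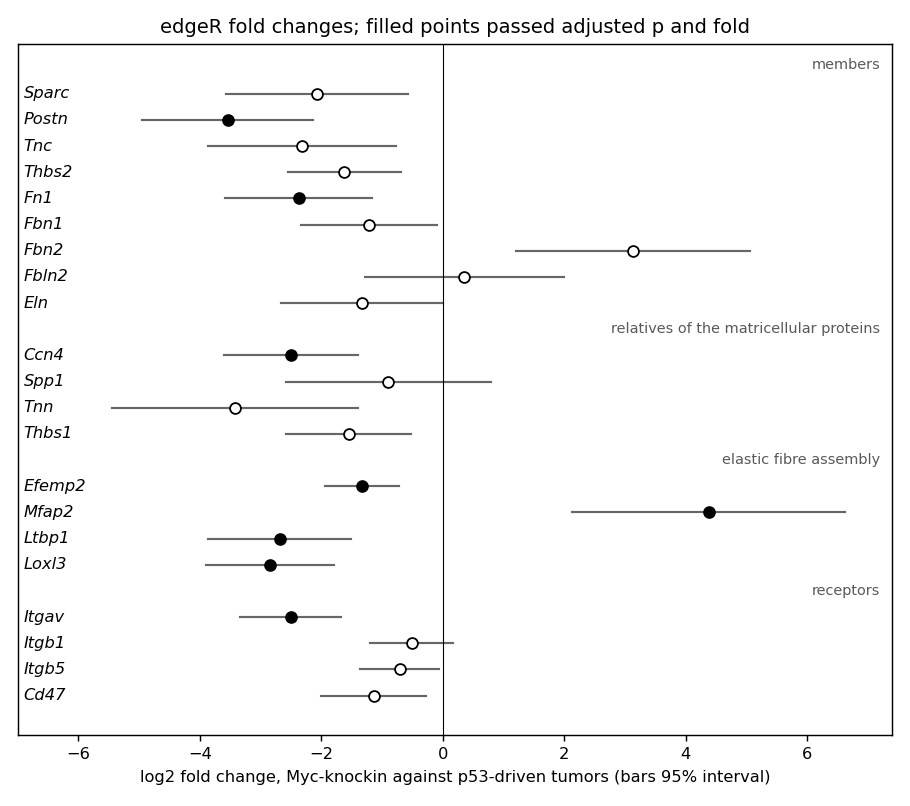
Log2 fold change of Myc-knockin against p53-driven tumors (x axis) from edgeR for the 9 members and 12 genes of related lists, with bars for the 95% interval and filled points for genes that passed the adjusted p and the fold. Postn and Fn1 are the filled members, and Fbn2 and Mfap2 lie on the right with values of 3.14 and 4.38.

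The fibrillin genes went opposite ways in their point estimates. Fbn1 encodes fibrillin-1, the main microfibril protein of adult tissue, and Fbn2 encodes fibrillin-2, which is best known from embryonic microfibrils. Fbn1 (ENSMUSG00000027204, chromosome 2 from 125300594 to 125507993) had 151, 337, 371 and 64.1 CPM in F187, F325, F331 and F368. It had 55.4, 128, 95.6, 160 and 59.8 CPM in M351, M408, M9, M624 and M664. The groups overlapped because F368 was low and M624 high. The log2 fold change of -1.21 (95% interval -2.33 to -0.09) did not pass (edgeR adjusted p = 0.157).

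Fbn2 (ENSMUSG00000024598, chromosome 18 from 58008623 to 58210487) had 7.90, 22.0, 7.78 and 2.67 CPM in F187, F325, F331 and F368. It had 57.2, 169, 37.4, 176 and 8.07 CPM in M351, M408, M9, M624 and M664. All Myc-knockin tumors but M664 were above all p53-driven tumors, and M664 was within their range. Means of 10.1 ± 8.31 CPM (SD, n = 4) and 89.4 ± 77.6 CPM (SD, n = 5) gave a log2 fold change of 3.14 (SE 0.88, edgeR adjusted p = 0.0587), which did not pass. It passed without M664 (3.45, adjusted p = 0.0324, with 4.87% of all genes called) and without M9 (3.33, adjusted p = 0.0447, with 10.4% called). The lowest counts were 20 in F187, with 9.42 expected as background, 22 in F368 and 47 in M9, with 16.4 expected.

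Since the genes of the pair differ in length, their ratio was computed per kilobase of exon within each tumor. This ratio was chosen after the values were seen, so its p-values and lack of overlap describe these tumors and are no independent test. The share of other gene pairs that separate as well was not computed. Fbn2 to Fbn1 was 0.048, 0.060, 0.019 and 0.038 in F187, F325, F331 and F368. It was 0.948, 1.21, 0.359, 1.01 and 0.124 in M351, M408, M9, M624 and M664. Fbn2 thus made up 1.89% to 5.66% of the pair in p53-driven and 11.0% to 54.8% in Myc-knockin tumors, with no overlap. The mean log2 ratio was -4.71 ± 0.71 (SD, n = 4) and -0.86 ± 1.39 (SD, n = 5), a difference of 3.86 or 14.5-fold (exact permutation test, two-sided, p = 0.0159, which is the smallest possible). With the background subtracted the difference was 4.00. It was 4.29 without M624 and M664 (exact permutation p = 0.0571, the smallest that 7 tumors allow) and between 3.53 and 4.39 when 1 tumor was left out.

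**Figure D3:**
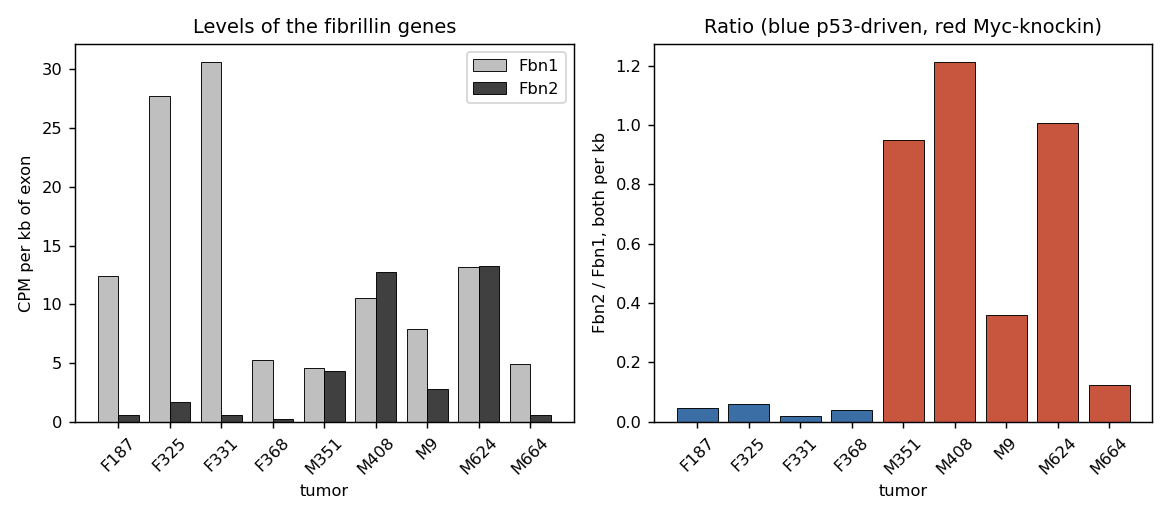
Levels of Fbn1 and Fbn2 (left, CPM per kb of exon) and the ratio Fbn2 to Fbn1 (right, blue p53-driven, red Myc-knockin) in each of the 9 tumors, both axes starting at 0. The ratio is at most 0.060 in p53-driven tumors and between 0.124 and 1.21 in Myc-knockin tumors, where it is lowest in M664.

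Fbln2 encodes fibulin-2, a linker protein that binds fibrillin-1 and fibronectin. It lies on chromosome 6 from 91212455 to 91272540 (ENSMUSG00000064080). It had 62.8, 87.0, 32.7 and 35.9 CPM in F187, F325, F331 and F368 and 19.7, 48.7, 17.5, 234 and 23.3 CPM in M351, M408, M9, M624 and M664. The direction depended on M624, since the log2 fold change was 0.35 with it (95% interval -1.29 to 1.99, edgeR adjusted p = 0.799) and -0.91 without it (adjusted p = 0.227). The 22 counts in M9 held 7.92 expected background reads.

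Eln encodes tropoelastin, the core protein of the elastic fibre, and lies on chromosome 5 from 134702593 to 134747323 (ENSMUSG00000029675). It had 72.3, 207, 56.4 and 22.7 CPM in F187, F325, F331 and F368, and F325 was the highest of all tumors. In M351, M408, M9, M624 and M664 it had 32.0, 36.8, 58.2, 43.1 and 10.1 CPM, inside or below the p53-driven range. The log2 fold change of -1.33 (95% interval -2.66 to -0.0023) did not pass (edgeR adjusted p = 0.186) and was -0.50 without F325. Of the 4 elastic fibre members none was called by edgeR, 3 had an unadjusted p under 0.05, as had 26.8% of all genes tested, and DESeq2 called 1, Fbn2.

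Levels were compared between members per kilobase of exon. In the p53-driven tumors the mean level in CPM per kb fell from Sparc (3238) through Fn1 (480), Tnc (269), Postn (164), Thbs2 (21.2), Fbn1 (19.0), Eln (11.1) and Fbln2 (8.57) to Fbn2 (0.764). In the Myc-knockin tumors the order was Sparc (771), Fn1 (92.6), Tnc (53.7), Postn (14.1), Fbln2 (10.8), Fbn1 (8.22), Thbs2 (6.84), Fbn2 (6.77) and Eln (4.45). The place of Fbln2 in this order rests on M624: its level was above that of Fbn1 in 1 of 5 tumors, and without M624 its mean was 4.29 CPM per kb, below Fbn1 (6.98), Thbs2 (6.09) and Fbn2 (5.14). Sparc was the 8th highest of all genes tested in the p53-driven and the 22nd in the Myc-knockin tumors. The ranges of neighbours in the order were separate between Sparc and Fn1 in both groups, and in the p53-driven tumors also between Postn and Thbs2 and between Fbln2 and Fbn2. All other neighbours overlapped in their ranges.

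Cells of other kinds contribute to whole tumors, and in bulk RNA fewer cells of a type and less RNA per cell cannot be told apart. The counts of called markers below stand against 3% of all genes tested called lower by edgeR. Of the 11 osteoblast markers 2 were called lower, Bglap and Bglap2, and the summed levels of the 11 are given above. The 10 fibroblast markers summed to 973 to 2104 CPM in p53-driven and 134 to 494 CPM in Myc-knockin tumors, and 2 of them were called lower, Dcn (decorin) and Lum (lumican). For osteoclasts, 6 of 8 markers were called lower, with sums of 2716 to 14151 CPM against 124 to 2570 CPM. For chondrocytes no marker of 7 tested was called by edgeR (3 had an unadjusted p under 0.05, and DESeq2 called 2), with sums of 663.7 to 4172 CPM against 194 to 467 CPM. No marker of mural cells, endothelium or skeletal muscle was called by edgeR or DESeq2, where 1, 1 and 0 markers had an unadjusted p under 0.05. Mural markers summed to 363 to 850 CPM against 275 to 591 CPM, endothelial markers to 366 to 511 CPM against 99.3 to 546 CPM and skeletal muscle markers to 13.4 to 5169 CPM against 9.11 to 2278 CPM. Of 10 macrophage markers 3 were called lower, with sums of 881 to 1544 CPM against 366 to 1151 CPM. No marker was at 0 in every tumor, and Bglap, Bglap2, Dcstamp, Col9a1 and Matn1 were at 0 in at least 1 tumor. The osteoblast, fibroblast, osteoclast and chondrocyte sums did not overlap between the groups. These sums were also taken without the most abundant gene of each list, and for osteoblasts without 2 genes. Without Col1a1 and Col1a2 the other osteoblast markers summed to 2553 to 5894 CPM in p53-driven and 143 to 4276 CPM in Myc-knockin tumors, and without Col11a2 the other chondrocyte markers summed to 74.3 to 2666 CPM and 64.2 to 182 CPM, so that the groups overlapped. Without Dcn the fibroblast sums (584 to 991 CPM and 131 to 396 CPM) still did not overlap. Neither did the osteoclast sums without Mmp9 (1507 to 8643 CPM and 67.7 to 943 CPM). Without Col1a1 alone the osteoblast sums did not overlap either (21409 to 68653 CPM in p53-driven and 1307 to 19852 CPM in Myc-knockin tumors). No further gene was left out of the fibroblast and osteoclast lists, so they cannot be set against the osteoblast list without 2 genes. The part of these markers in the members' differences was not tested.

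Over all genes tested, 3% were called lower. Of 24 relatives of the matricellular proteins, 21 were tested and 1 was called lower, at a median log2 fold change of -0.61. This was Ccn4, a WNT-induced secreted protein of the CCN family, with 290, 466, 536 and 669 CPM in F187, F325, F331 and F368 and 20.1 to 136 CPM in the Myc-knockin tumors (log2 fold change -2.49, edgeR adjusted p = 0.0267). The 3 other relatives with the highest levels did not pass. Tnn, tenascin-N, which is made in bone and tooth, had 396 ± 153 CPM (SD, n = 4) and 38.0 ± 49.5 CPM (SD, n = 5), with a log2 fold change of -3.42 (adjusted p = 0.0539). Thbs1, thrombospondin-1, had 303 ± 173 and 103 ± 42.8 CPM (log2 fold change -1.55, adjusted p = 0.0708). Spp1, which encodes the bone sialoprotein osteopontin, had 1840 ± 1526 and 985 ± 837 CPM, within the spread between tumors (log2 fold change -0.90, adjusted p = 0.482).

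All 24 genes of elastic fibre assembly were tested, of which 3 were called lower and 1 higher, at a median log2 fold change of -0.21. Among all genes tested 3% were called lower and 2.26% higher. Efemp2, which encodes fibulin-4, a protein needed to form elastic fibres, had 48.6 to 68.3 CPM in p53-driven and 17.4 to 35.9 CPM in Myc-knockin tumors (log2 fold change -1.33, edgeR adjusted p = 0.0295). Ltbp1, a protein that tethers latent TGF-beta to the matrix, had 96.4 to 418 CPM and 9.94 to 49.4 CPM (log2 fold change -2.69, adjusted p = 0.0264). Loxl3, a lysyl oxidase that cross-links collagen and elastin, had 37.4 to 120 CPM and 3.89 to 14.4 CPM (log2 fold change -2.85, adjusted p = 0.0203). Its lowest counts were 8 in M351 and 16 in M9, with 5.2 and 5.7 expected as background, while its lowest level, in M624, rests on 102 counts. The gene called higher was Mfap2, which encodes the fibrillin-binding microfibril protein MAGP-1. It had 0.39, 2.96, 1.12 and 1.22 CPM in F187, F325, F331 and F368, from 1, 38, 13 and 10 counts, and 20.3, 9.16, 7.97, 115 and 6.17 CPM in M351, M408, M9, M624 and M664. Its groups did not overlap, as for 5.41% of all genes in this direction (log2 fold change 4.38, edgeR adjusted p = 0.0390). Without M624 the value was 2.88 (adjusted p = 0.0421). Lox, the lysyl oxidase of elastin and collagen (-2.12, adjusted p = 0.0510), and Emilin3, a gene of the EMILIN family (4.23, adjusted p = 0.0531), missed the threshold narrowly and were picked out after their values were seen. Emilin3 too was highest in M624, with 123 CPM, and the remaining Myc-knockin values lay between 6.16 and 25.8 CPM. Without M624 its log2 fold change was 2.78 (adjusted p = 0.0813).

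Of 14 receptor genes, all tested, 1 was called lower, at a median log2 fold change of -0.47, where 3% of all genes tested were called lower. Itgav, the integrin alpha-v subunit that pairs with several beta subunits to bind fibronectin and periostin, had 484, 511, 807 and 548 CPM in F187, F325, F331 and F368. It had 129, 153, 112, 52.5 and 71.3 CPM in M351, M408, M9, M624 and M664, all below the p53-driven tumors (log2 fold change -2.50, edgeR adjusted p = 0.0175). The 3 other receptor genes with the highest levels did not pass. Itgb1, the integrin beta-1 subunit, had 587 ± 79.9 CPM (SD, n = 4) and 411 ± 109 CPM (SD, n = 5), with a log2 fold change of -0.52 (adjusted p = 0.313). Itgb5, the beta-5 subunit, had 153 ± 26.1 and 93.7 ± 31.1 CPM (log2 fold change -0.71, adjusted p = 0.154). Cd47, the receptor of thrombospondin-1 and a signal against phagocytosis, had 166 ± 45.5 and 75.7 ± 38.0 CPM (log2 fold change -1.14, adjusted p = 0.0985).

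All 6 calls in these 3 lists were lost when F325, F331 or F368 was left out, with adjusted p-values of 0.0631 to 0.0960, 0.0640 to 0.137 and 0.0641 to 0.155. Efemp2 also missed the threshold without F187 (adjusted p = 0.0655), M351 (0.0540) or M624 (0.0602), and Mfap2 without F187 (0.0790) or M351 (0.0543).

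**Figure D4:**
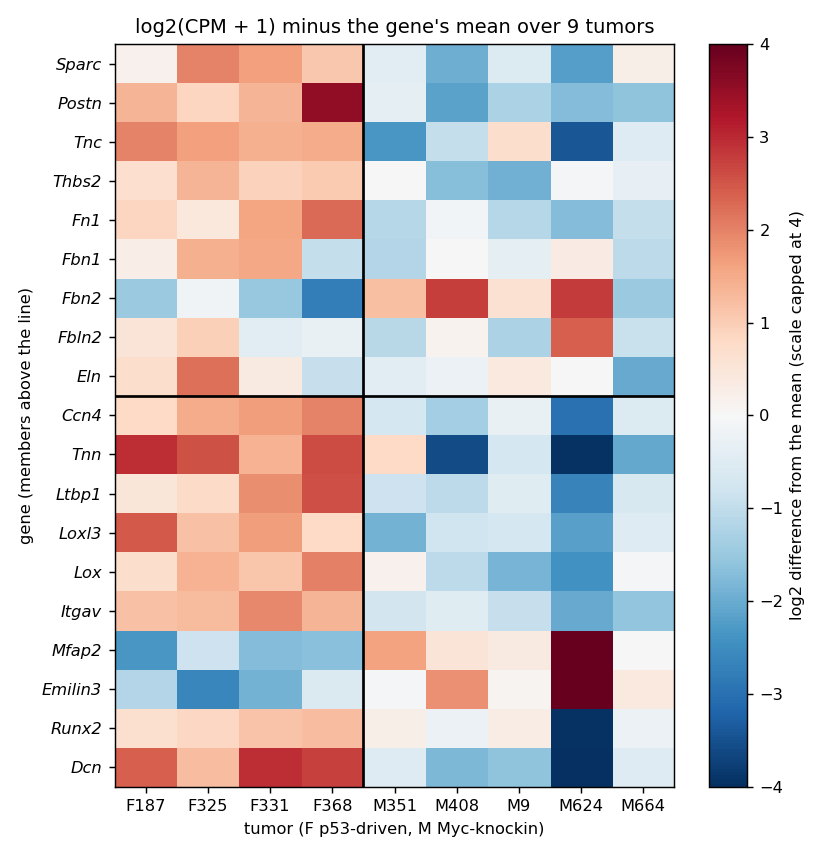
Log2(CPM + 1) of the 9 members, 8 genes of the related lists and the markers Runx2 and Dcn in each tumor, as the difference from the gene's mean over 9 tumors, with the color scale capped at 4. Fbn2, Mfap2 and Emilin3 are the rows with lower values in p53-driven tumors (left of the line), and M624 has the lowest Runx2 and the highest Fbln2.

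To find the genes whose pattern over the 9 tumors was most like that of each member, the root mean square (RMS) difference of centred log2 CPM was computed against 9538 genes with a mean of at least 10 CPM. For Sparc the nearest were Creb3l1 (0.41) and Copz2 (0.43), where the profile of Sparc itself had an RMS of 1.38. Postn was nearest to Mylk (0.44) and Gxylt2 (0.45), Tnc to Olfml2b (0.62) and Pdgfd (0.65), and Thbs2 to Gpx7 (0.32) and Fkbp9 (0.37). Fn1 was nearest to Rassf4 (0.41) and Fndc3b (0.42), Fbn1 to Gfpt1 (0.46) and Plekhb2 (0.53), and Fbn2 to Lrig1 (0.69) and Tenm3 (0.78). Fbln2 was nearest to Cd248 (0.54) and Gxylt1 (0.55), and Eln to Ulbp1 (0.54) and Col14a1 (0.68). Among the members themselves the closest profiles were those of Fbn1 and Eln (0.73) and of Postn and Fn1 (0.90), and the farthest were Postn and Fbn2 (3.57). These likenesses describe 9 tumors that share their libraries and depth, and no test was made of them.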

How the data were processed

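The study's methods name a stranded total RNA kit and enrichment of mRNA with oligo-dT for the tumor RNA. The Rn7sk levels given above set M624 and M664, both Myc-knockin, apart from the other libraries. Whether all libraries were prepared alike is not given in the sources used here. The deposited table holds raw counts of 55367 genes in 9 columns, which the authors made by trimming reads (Trim Galore), alignment to mm10 (STAR) and featureCounts. The strand setting of the counting is not given in the sources used here. Column names do not occur in the labels: 6 column names are listed by genotype in the study's supporting data, and M351, M9 and M664 were placed by their letter, so columns were used only as members of a group.

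The main test was edgeR 4.0.16 (glmQLFit and glmQLFTest) in R 4.3.3, with TMM factors, filterByExpr at a minimum count of 10 and Benjamini-Hochberg adjustment over 15365 genes. Log2 CPM used a prior count of 2. Exact permutation tests were two-sided over 126 arrangements, not adjusted for the number of members. Of all genes 348 were called higher and 461 lower, and with upper-quartile scaling 626 and 345. DESeq2 1.42.0 and limma 3.58.1 were alternatives. Exon lengths are those of GENCODE for the same genome, and upstream sequences are from RefSeq, which held 6 of the 9 members. Floors cover counting error only, whereas the intervals of the log2 fold changes come from the edgeR fit and include the spread between tumors. The members, lists and alternatives were chosen with earlier results of these data known. Genes named are all members, each list's called genes filled up to 4 by level, and each member's 2 nearest profiles. Lox and Emilin3, the marker genes named by themselves, the marker sums without their most abundant genes and the order without M624 were added after the values were seen. An osteoblast marker is not reported here. Library floors and background are given in the report.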

Additional observations from a re-analysis of the deposited data

Results flagged for a closer look

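In 2 of 18 groups of member CPM values, a single tumor lay further from the others than Dixon's 95% critical value allows. Chance gives about 1 in 20 groups if the values are normally distributed. The ratios were taken on CPM and not on log2 CPM, which draws high values closer, so that rate need not hold here. Postn had 3596 CPM in F368, and the next p53-driven tumor had 781 CPM (Dixon ratio 0.925). Fbln2 had 234 CPM in M624, and the next Myc-knockin tumor had 48.7 CPM (Dixon ratio 0.856). Both genes' fold changes without these tumors are given with the genes.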

How the results depend on the processing

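edgeR called 2 members and 6 genes of the 3 related lists, where 5.27% of all genes were called. The number of members was 1 with library size alone (0.885% of all genes called), 1 without M624 and M664 (4.61%), 4 with at least 10 counts in every tumor (14.2%), 6 with DESeq2 (17.2%) and 6 with limma-voom (10.8%). The number of list genes was 3 with library size alone, 17 with DESeq2, 14 with limma-voom and 13 without F187, M351, M408 and M9. In the last of these fits 27.9% of all genes were called. When 1 tumor was left out, between 0 and 5 members and between 0 and 7 list genes were called, against 0.0292% to 10.4% of all genes. The count of 0 arose without F325, F331 or F368, where edgeR gave 6, 7 and 8 members and 23, 17 and 18 list genes an unadjusted p under 0.05, as did 19.6%, 19% and 16.6% of all genes. DESeq2 was not run on those subsets. Exact permutation tests on log2 CPM gave 6 of 9 members a p under 0.05, and 4 to 6 with 1 tumor left out. The share of all genes was not computed for this test. With edgeR on all tumors 26.8% of all genes had an unadjusted p under 0.05. Over all settings run, Fbln2 was the one member whose direction changed, to -0.91 without M624, -0.81 with limma-voom and -0.81 without M624 and M664. The call of Fn1 was also lost with library size alone (adjusted p = 0.161) and with all genes of at least 1 count (adjusted p = 0.0841), and that of Efemp2 with these (0.278 and 0.115) and without F187, M351, M408 and M9 (0.0983). With library size alone Ccn4 (0.0556), Mfap2 (0.0550) and Itgav (0.0581) missed the threshold as well. The ratio of Fbn2 to Fbn1 gave 3.32 without F187, M351, M408 and M9 (exact permutation p = 0.2, which leaves 5 tumors). Depth limits the values of Thbs2, Fbln2 and Fbn2 most, which rest on 23, 22 and 47 counts in M9. For Fbn2 the counts were lower still in p53-driven tumors F187 (20, with 9.42 expected as background) and F368 (22). No paired analysis was possible because the table's columns carry no replicate numbers that link a p53-driven with a Myc-knockin tumor.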
